A study of Rattus norvegicus with 24 samples.

Results

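The complement set described here comprised 9 genes, namely C1r, C1s, C2, C3, Cfb, Cfp, Serping1, Cd55 and Cd59. They were taken by gene name, as components and regulators of the cascade, and not by their measured values. All 9 were among the 16881 gene symbols of the deposited count tables. All 9 also passed the filter on low counts that left 11351 genes for testing. The series measured RNA in lung of wild-type rats that served as controls or were exposed to WCSC at 5, 10 or 20 mg/mL, collected at 6 or at 12 days. WCSC stands for whole-cigarette smoke condensate, the material condensed from cigarette smoke. According to the title of the series exposure was repeated, in a rat model of lung damage. Each of the 8 groups held 3 libraries. The labels give no strain, age, sex, route of exposure or treatment of the controls, and nothing in them says that the replicates were separate animals. The p-values below therefore measure the spread between these libraries, which may be technical.

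Complement is a cascade of proteins in plasma, in tissue fluid and on cells that marks targets for uptake, recruits leukocytes and can form pores in membranes. In the classical route, C1q bound to a target activates the proteases C1r and C1s, and C1s then cleaves C4 and C2 to build a convertase that cleaves C3. In the alternative route, factor B (Cfb) pairs with a fragment of C3 to form a second convertase, which properdin (Cfp) stabilises, while C1 inhibitor (Serping1), decay-accelerating factor (Cd55) and protectin (Cd59) restrain the cascade at its start, at the convertases and at the terminal pore. Much of plasma complement comes from the liver, and the lung also makes complement locally in epithelium, macrophages and fibroblasts.

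Library totals ranged from 4795667 to 11109713 counts with a median of 6840815. Values are given as counts per 1000000 counts (CPM) after TMM scaling, whose factors ran from 0.814 to 1.11. Levels are compared within a gene only, since the values are not per length. Among the 16 lists of cell type markers, the genes of alveolar type II cells, which make surfactant, were read in every library, as was the type I marker Ager. The macrophage marker Marco was at 0 in all 24 libraries, while the other 9 macrophage genes were read. A pair of libraries stood apart in tissue content. Replicate 2 of 20 mg/mL at 12 days had summed CPM of 2895 for heart muscle genes (195 at most elsewhere), 21790 for fibroblast genes (4253 to 9602 elsewhere) and 7049 for type II genes (15890 or more elsewhere). Replicate 3 of 20 mg/mL at 6 days had 1354 summed CPM for endothelial genes, above 1221 in that other library and below 1976, the lowest value elsewhere. Where a named value below turned direction without either library, the value without it is given. In bulk tissue, fewer cells of a type and less RNA per cell cannot be told apart.

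The sequences before the start sites of C3 and Cfp are shown because C3 is the component on which all routes meet, and because Cfp was the only member whose 20 mg/mL and control libraries did not overlap at either day. They hold the 250 bases before the start site in the RefSeq table for build GRCr8, which had an entry for 4 of the 9 members (C3, Cfp, C1r and Cd55). C3 lies on the minus strand (chr9:2201340-2201589) and Cfp on the plus strand (chrX:3715301-3715550). Capitals mark matches, on both strands, to 4 motifs. These were TTNNGNAA (C/EBP-type), TTCNNNGAA (STAT-type), the interferon-stimulated response element-type (GAAA, 2 bases of any kind, GAAA) and the NF-kappaB-type (GGG, 5 bases of any kind, CC).
C3: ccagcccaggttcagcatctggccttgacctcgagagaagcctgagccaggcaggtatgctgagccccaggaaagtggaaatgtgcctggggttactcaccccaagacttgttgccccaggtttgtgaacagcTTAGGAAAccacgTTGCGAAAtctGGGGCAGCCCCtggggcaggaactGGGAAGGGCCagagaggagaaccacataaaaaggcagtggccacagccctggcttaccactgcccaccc
Cfp: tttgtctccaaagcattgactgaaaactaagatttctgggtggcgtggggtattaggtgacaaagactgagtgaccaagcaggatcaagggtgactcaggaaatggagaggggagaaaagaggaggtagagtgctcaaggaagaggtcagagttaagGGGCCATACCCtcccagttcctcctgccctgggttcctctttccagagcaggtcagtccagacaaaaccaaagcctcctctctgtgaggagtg

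The C3 sequence matched the C/EBP-type motif from bases -117 and -104 relative to the start site. The NF-kappaB-type motif matched it from bases -93, -92 and -69, of which the matches from -93 and -92 overlap. In Cfp the NF-kappaB-type motif matched from bases -93 and -92, again overlapping, and the C/EBP-type motif was not found. Neither window held the other 2 motifs. C1r matched the C/EBP-type motif and Cd55 did not, while both matched the NF-kappaB-type motif. Of 33469 such 250-base sequences in the table, 37.2% held the C/EBP-type motif, 3.41% the interferon-stimulated response element-type, 7.67% the STAT-type and 42.3% the NF-kappaB-type, so matches to the first and last were common. Cebpd, which encodes a C/EBP family factor, fell with dose (mean slope of both days -0.64 log2 per 10 mg/mL, SE 0.09, edgeR adjusted p 0.0102). Cebpd averaged 247 ± 42.4 CPM in controls and 77.4 ± 14.4 CPM at 20 mg/mL at 6 days (SD, n = 3). Cebpd was 1 of 3 genes called in the mean slope (0.0264%), and no gene was called there without both libraries of unusual tissue content. Cebpb, another C/EBP family gene tested, was not called. Whether either factor acts on C3 or another member was not tested.

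None of the 9 complement genes passed the test in any of the 11 contrasts. The test was the quasi-likelihood test of edgeR with p adjusted by Benjamini-Hochberg over the 11351 genes and a threshold of 0.05. At 20 mg/mL the test called 0 genes of all genes tested (0%) at 6 days and 0 (0%) at 12 days. Without adjustment, 465 genes had p under 0.05 at 6 days (4.10%), and C2 and Cfp were among them, both higher. Without replicate 2 of the controls no member had p under 0.05, without replicate 3 of 20 mg/mL 1 did, and without the 8 libraries in which fewest genes were detected 4 did. At 12 days 420 genes did (3.70%), with no member among them. DESeq2 called 3 genes and limma voom with sample weights called 2 at 6 days, and 4 and 2 at 12 days, with no member called by either. Under the alternative settings, 0 of 1908 adjusted values of the members passed the threshold. A p that misses the threshold does not show that values did not differ, and the intervals below give the changes that remain possible.

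At 6 days and 20 mg/mL, 8 of the 9 members had fold changes above 0, with a median log2 fold change of 0.26 against -0.003 for all genes. The background share above 0 was 49.6%. Only C1r was below 0, at -0.01 (0.01 with upper-quartile scaling). Without replicate 3 of 20 mg/mL, the library with little endothelial RNA, 7 of 9 were above 0 and the median was 0.08. With each of the 6 libraries left out in turn the median ran from 0.08 to 0.41, and it was 0.48 without the 8 libraries in which fewest genes were detected. The slopes over dose at 6 days were above 0 for 9 of 9 members (background 49.6%), and for 7 of 9 without that library. At 12 days and 20 mg/mL, 4 of 9 were above 0, against a background of 51.2%, with a median of -0.11 against 0.01 for all genes. Without replicate 2 of 20 mg/mL, the library with heart muscle genes, 3 of 9 were above 0 and the median was -0.10. Without replicate 2 of the controls 5 of 9 were above 0 and the median was 0.08. In 6 members (C2, C3, Cfb, Cfp, Serping1 and Cd55) the group with the highest mean was 20 mg/mL at 6 days. The share of all genes with that order is not given here. For C3 only replicate 3 of that group (215 CPM) lay above the next highest mean, 120.5 CPM. For Cd55 only replicate 1 (16.1 CPM) did, with a next highest mean of 10.1 CPM. C2, C3 and Cfb had their lowest mean at the same dose at 12 days. For C2 only replicate 2 (57.0 CPM) lay below the next lowest mean, 80.0 CPM. Ranked by mean, neighbouring groups differed by less than the pooled within-group SD for each of the 7 neighbour pairs in 8 of the members. The exception was C2, where 1 pair differed by more: 20 mg/mL at 6 days lay 49.0 CPM above 10 mg/mL at 6 days, with a pooled SD of 26.0 CPM. Ranking puts similar means side by side, so small gaps between neighbours do not show that the groups were alike. The Cfp means, for example, ran from 28.1 to 40.8 CPM, with a pooled SD of 5.3 CPM.

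**Figure D1:**
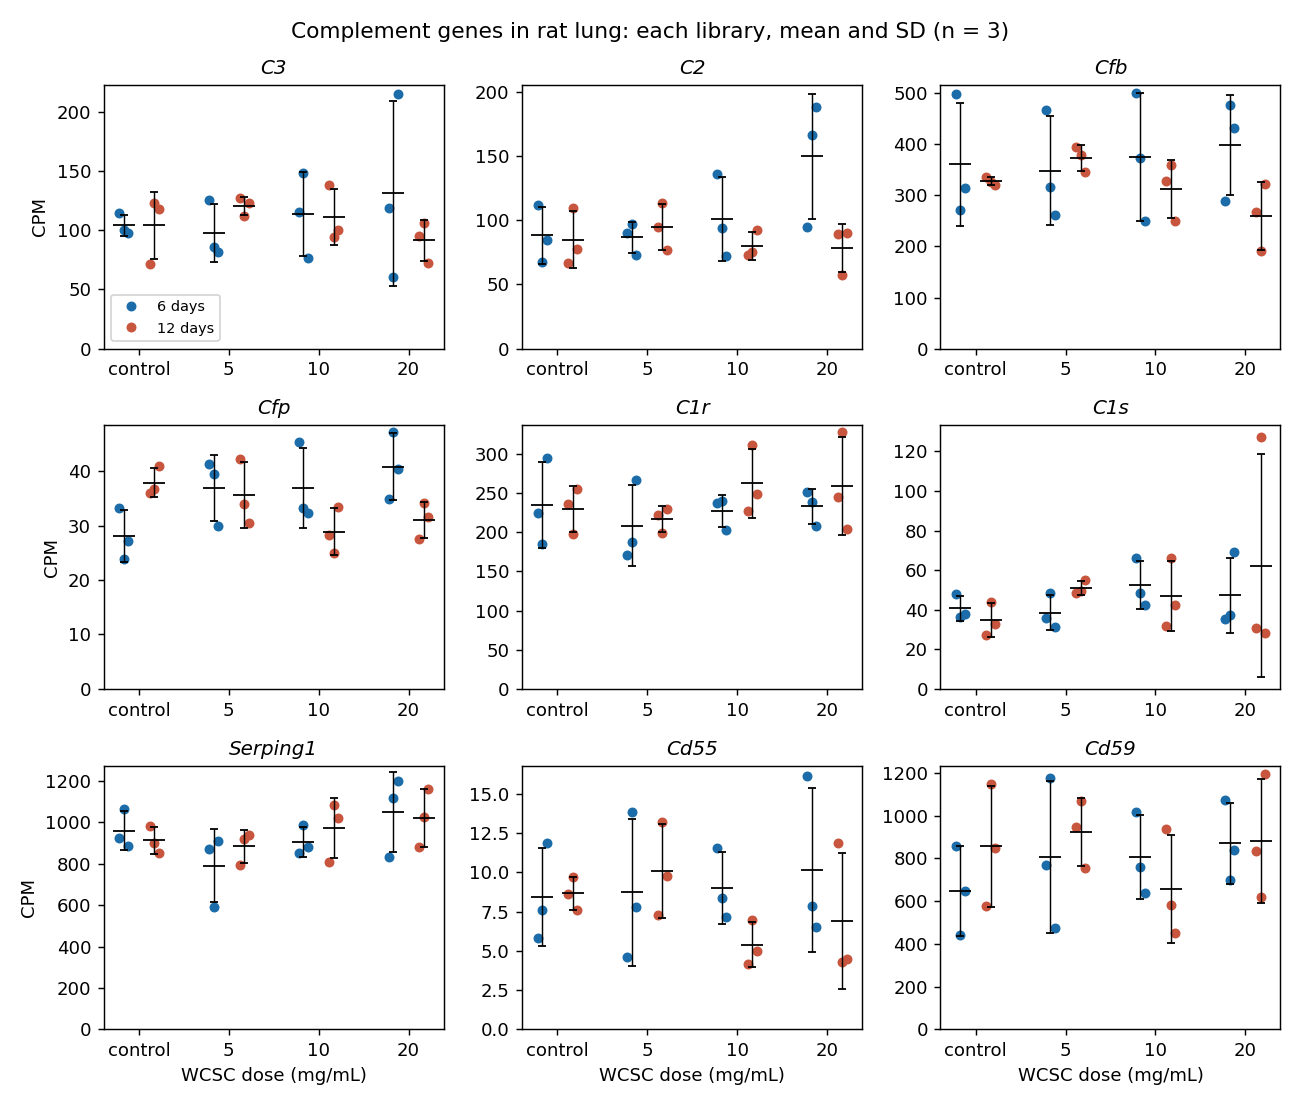
CPM of the 9 complement genes in each of the 24 libraries (points), by WCSC dose (mg/mL) and day (blue 6 days, red 12 days), with the group mean and SD (n = 3). C2 at 20 mg/mL and 6 days reaches 188 CPM, C1s has a lone value of 127 CPM at 20 mg/mL and 12 days, and the blue and red Cfp points of the controls do not overlap (23.8 to 33.2 and 36.0 to 40.9 CPM).

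The classical proteases are described in order. C1r, the protease that C1q activates, measured 225, 185 and 295 CPM in the controls at 6 days and 252, 239 and 209 CPM at 20 mg/mL. At 12 days the controls had 236, 198 and 256 CPM and the 20 mg/mL libraries had 245, 328 and 205 CPM. These groups overlapped at both days. The log2 fold changes were -0.01 (95% interval -0.45 to 0.43) and 0.17 (-0.26 to 0.61), and the interval at 6 days leaves room for changes of either sign (0.07 without replicate 3 of 20 mg/mL). The value of 328 CPM at 12 days belongs to the library with heart muscle genes, and without it the log2 fold change was -0.03. C1r varied little, with a within-group SD of 0.25 log2 units that was smaller in 14.1% of all genes.

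C1s, which C1r activates and which cleaves C4 and C2, measured 27.3, 44.0 and 33.0 CPM in the controls at 12 days. At 20 mg/mL and 12 days it measured 31.0, 127 and 28.4 CPM, so that 2 libraries lay within the control range and replicate 2 far above it. The fitted log2 fold change was 0.83 (SE 0.42, edgeR p 0.0583, adjusted p 0.998), and without replicate 2 it was -0.23. That library is the one with the most fibroblast RNA. The mean slope over both days moved from 0.25 to -0.02 log2 per 10 mg/mL without it. At 6 days C1s measured 47.9, 36.2 and 38.0 CPM in controls and 35.3, 37.3 and 69.0 CPM at 20 mg/mL. The log2 fold change of 0.22 became -0.16 without replicate 3 of the exposed group, the library with little endothelial RNA. At 5 mg/mL and 12 days C1s measured 48.4, 49.5 and 55.1 CPM, above the 3 controls, with a log2 fold change of 0.55 (SE 0.42, adjusted p 1). Of all genes, 3.84% were higher without overlap in that comparison. C1s also lies next to C1r in the RefSeq annotation, and the levels of the pair across the 24 libraries correlated at r = 0.32 (permutation p 0.126, adjusted 0.378; Spearman's rho 0.02, p 0.93) and at -0.03 without the 2 libraries farthest from the median of C1r.

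C2, the protease subunit of the classical C3 convertase, had the largest fold change of the members at 6 days. It measured 112, 67.9 and 84.8 CPM in the controls, 89.9, 97.0 and 73.4 CPM at 5 mg/mL, 137, 94.0 and 72.1 CPM at 10 mg/mL, and 95.1, 166 and 188 CPM at 20 mg/mL. Replicates 2 and 3 at 20 mg/mL and replicate 1 at 10 mg/mL lay above all controls, and the other exposed libraries lay inside their range. The mean was 150 ± 48.8 CPM at 20 mg/mL against 88.3 ± 22.4 CPM in controls (SD, n = 3). The log2 fold change was 0.76 (SE 0.28, 95% interval 0.20 to 1.33, edgeR p 0.011, adjusted p 1). It was 0.57 without replicate 3. The slope over dose at 6 days was 0.41 log2 per 10 mg/mL (SE 0.13, p 0.00466, adjusted p 0.909), where edgeR called 1 gene in all (0.00881%, Cebpd) and 555 had p under 0.05 without adjustment (4.89%).

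At 12 days C2 did not show this order. The controls had 66.8, 110 and 77.9 CPM, the 5 mg/mL libraries 94.9, 113 and 77.1 CPM, the 10 mg/mL libraries 72.8, 75.2 and 92.2 CPM and the 20 mg/mL libraries 89.1, 57.0 and 90.1 CPM. All 4 groups overlapped, and the log2 fold change at 20 mg/mL was -0.11 (95% interval -0.68 to 0.47), and 0.08 without replicate 2 of 20 mg/mL. The test of the difference between days gave -0.87 (SE 0.39, p 0.0361, adjusted p 1), with 432 genes (3.81%) at p under 0.05 and 0 (0%) called. In the RefSeq annotation C2 lies beside Cfb and overlaps Zbtb12. C1r overlaps LOC102553847, a gene of a long non-coding RNA. The strand setting of the counting is not given in the sources used here, so reads of an overlapping gene could be counted in C2 or C1r.

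Some summed cell type markers also differed at 20 mg/mL and 6 days, with no marker gene called. At 6 days the summed macrophage genes were 612 to 738 CPM at 20 mg/mL against 358 to 557 CPM in controls, without overlap, and all 9 tested macrophage genes had fold changes above 0, none called. Type II genes (23180 to 28580 against 17850 to 23030 summed CPM) and T and NK cell genes (78.8 to 102 against 47.9 to 77.2) were also higher without overlap. Genes of B and plasma cells were lower (21.2 to 24.2 against 27.2 to 37.3). These were 4 of the 16 lists. Of all single genes, 8.77% had no overlap in either direction in this comparison. Their part in the values of C2, Cfp and the other members was not tested.

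C3, the component that both convertases cleave, measured 114, 101 and 97.5 CPM in the controls at 6 days and 119, 60.1 and 215 CPM at 20 mg/mL. The 20 mg/mL group held both the lowest and the highest C3 value of all 24 libraries. The log2 fold change of 0.33 (SE 0.32, adjusted p 1) was -0.22 without replicate 3. At 12 days C3 measured 71.5, 123 and 118 CPM in controls and 95.2, 106 and 72.7 CPM at 20 mg/mL. These groups overlapped, with a log2 fold change of -0.19 (95% interval -0.86 to 0.48). At 5 and 10 mg/mL the fold changes of C3 lay between -0.09 and 0.21 over both days.

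Cfb, the protease subunit of the alternative convertase, was read at 190 to 501 CPM. In the controls at 6 days it measured 499, 271 and 314 CPM, and at 20 mg/mL 288, 477 and 432 CPM. The control range covered all 3 exposed libraries, and the log2 fold change was 0.14 (95% interval -0.43 to 0.72). At 12 days the 3 controls lay close together at 336, 327 and 321 CPM. The 5 mg/mL libraries were all above them at 395, 379 and 346 CPM, with a log2 fold change of 0.19 (SE 0.28, adjusted p 1). At 20 mg/mL the values were 267, 190 and 323 CPM, and the log2 fold change was -0.33 (SE 0.28, adjusted p 0.998). The lowest value, 190 CPM, came from the library with the fewest type II genes, and without it the log2 fold change was -0.15.

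Properdin (Cfp), the stabiliser of the alternative convertase, separated from its controls at both days, in opposite directions. At 6 days it measured 33.2, 23.8 and 27.2 CPM in the controls and 34.9, 47.2 and 40.3 CPM at 20 mg/mL, so every exposed library lay above every control. The means were 28.1 ± 4.76 and 40.8 ± 6.17 CPM (SD, n = 3). The log2 fold change was 0.54 (SE 0.21, 95% interval 0.11 to 0.97, edgeR p 0.0156, adjusted p 1). Of all genes, 4.06% were higher without overlap in this comparison. At 5 mg/mL Cfp measured 41.3, 39.5 and 30.0 CPM and at 10 mg/mL 45.4, 33.2 and 32.4 CPM, both overlapping the controls, with log2 fold changes of 0.40 at each dose.

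At 12 days Cfp measured 36.0, 36.7 and 40.9 CPM in the controls, 42.3, 34.0 and 30.4 CPM at 5 mg/mL, 28.2, 24.9 and 33.5 CPM at 10 mg/mL, and 27.6, 34.1 and 31.6 CPM at 20 mg/mL. The libraries at 10 and at 20 mg/mL all lay below the controls, which these comparisons share. The log2 fold change was -0.39 (SE 0.21, p 0.0738, adjusted p 1) at 10 mg/mL and -0.28 (SE 0.21, p 0.185, adjusted p 0.998) at 20 mg/mL. Lower values without overlap were found for 4.55% and 4.11% of all genes in these comparisons. The summed genes of neutrophils and monocytes were also lower at 20 mg/mL and 12 days. They were at 338 to 519 CPM against 590 to 646 in controls. Of the 6 tested genes of that list, 2 had fold changes above 0 and none was called. S100a8 and S100a9 held most of its reads (29401 and 50102 over all libraries, 4200 at most for another gene). The summed T and NK cell genes were higher (79.6 to 93.8 against 65.7 to 75.6 CPM), with 5 of 6 above 0 and none called. The part of these cells in the Cfp values was not tested.

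The effect of 20 mg/mL on Cfp at 12 days minus that at 6 days was -0.83 log2 units (SE 0.29, 95% interval -1.43 to -0.22, p 0.00993, adjusted p 1). Leaving out each library in turn gave -0.97 to -0.71. The pattern of higher at 6 days and lower at 12 days without overlap was found in 24 genes, or 0.211% of those tested, and opposite directions in either order in 46 (0.405%). The controls themselves differed. Cfp was higher in the controls at 12 days than at 6 days, without overlap (log2 fold change 0.43, SE 0.21, p 0.0492, adjusted p 1), as 4.70% of all genes were, and 2.46% had unadjusted p under 0.05. The difference between days uses these same controls, so a part of it lies in them. The 20 mg/mL libraries averaged 40.8 CPM at 6 days and 31.1 ± 3.29 CPM at 12 days, and the highest of the second group, 34.1 CPM, lay just below the lowest of the first, 34.9 CPM.

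**Figure D2:**
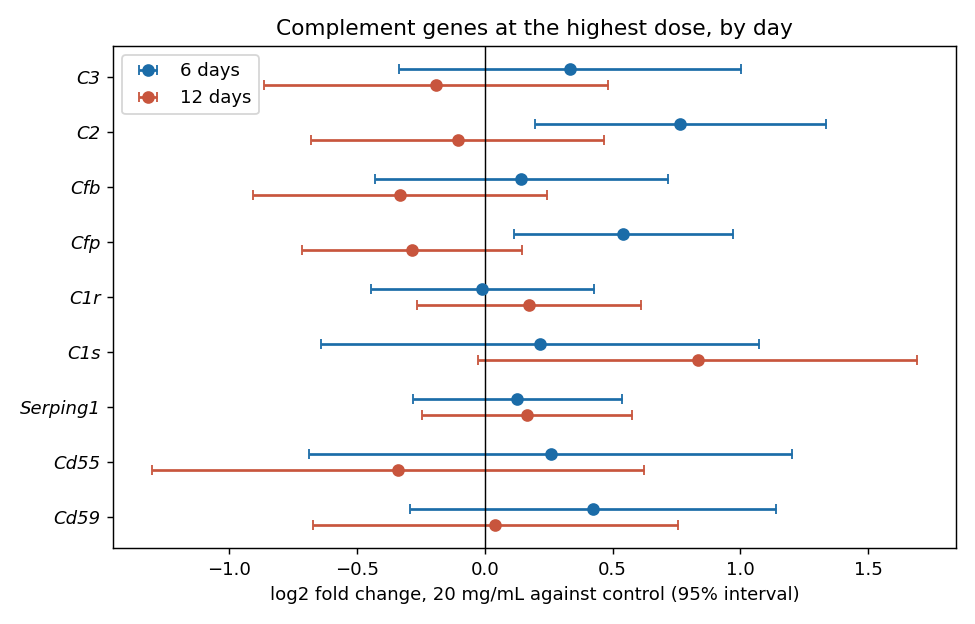
Log2 fold change of each complement gene at 20 mg/mL WCSC against the control of the same day (edgeR; bars are 95% intervals, 3 libraries a group). The intervals of C2 (0.20 to 1.33) and Cfp (0.11 to 0.97) at 6 days lie above 0, and no adjusted p passed the threshold.

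The soluble regulator Serping1, the inhibitor of C1r and C1s, had the smallest within-group SD of the members. It measured 927, 1067 and 888 CPM in the controls at 6 days and 832, 1116 and 1200 CPM at 20 mg/mL, and 984, 900 and 855 CPM against 881, 1028 and 1162 CPM at 12 days. All these groups overlapped. The log2 fold changes were 0.13 (95% interval -0.28 to 0.54) and 0.16 (-0.25 to 0.58). Only 6.78% of all genes had a smaller within-group SD than the 0.21 log2 units of Serping1.

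Cd55, which speeds the decay of the convertases, had the fewest reads of the members, 22 to 104 a library, and counting noise therefore weighs more in its values. It measured 5.84, 7.57 and 11.9 CPM in the controls at 6 days and 16.1, 7.85 and 6.49 CPM at 20 mg/mL. The groups overlapped, and the log2 fold change of 0.26 became -0.24 without replicate 1 of the exposed group. At 12 days the controls had 8.63, 9.73 and 7.62 CPM. The 10 mg/mL libraries, at 4.18, 6.96 and 4.98 CPM, all lay below them (log2 fold change -0.69, SE 0.47, adjusted p 1), and the 20 mg/mL libraries, at 11.9, 4.28 and 4.47 CPM, lay on both sides.

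Cd59, which blocks assembly of the membrane pore, ranged from 440 to 1195 CPM. At 6 days the controls had 861, 440 and 645 CPM and the 20 mg/mL libraries 1073, 699 and 841 CPM, with overlap and a log2 fold change of 0.42 (95% interval -0.29 to 1.14). At 12 days the controls had 580, 1147 and 847 CPM and the 20 mg/mL libraries 834, 619 and 1195 CPM (log2 fold change 0.04, interval -0.67 to 0.76). The spread within groups was as wide as the differences between them. Of the 54 comparisons of a member at a dose with its control, 6 had no overlap, 3 higher and 3 lower, all but 1 of them at 12 days. The share of all genes without overlap in either direction was 8.77%, 6.24% and 8.35% at 20, 10 and 5 mg/mL at 6 days, and 7.70%, 8.46% and 7.75% at 12 days. The 6 of 54 therefore lay near the background.

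The other complement genes were taken from lists by role. Of 50 listed genes, members included, 45 were in the tables and 39 were tested, and none was called in any contrast. At 20 mg/mL 4 of 39 had unadjusted p under 0.05 at 6 days (4.10% of all genes), all higher, and 5 of 39 at 12 days (3.70% of all genes), 3 higher and 2 lower. The count of 4 was 1 without replicate 2 of the controls, 2 without replicate 3 of 20 mg/mL, 7 without replicate 2 of 20 mg/mL and 8 without the 8 libraries in which fewest genes were detected. The count of 5 was 1 without replicate 2 of 20 mg/mL and 3 without replicate 1 or 3 of the controls. At 6 days 27 of 39 had fold changes above 0 (49.6% of all genes) with a median of 0.18, and 25 of 39 with a median of 0.06 without replicate 3 of 20 mg/mL. At 12 days 23 of 39 did (51.2% of all genes) with a median of 0.16. Without replicate 2 of 20 mg/mL this turned to 13 of 39 with a median of -0.16. Beside C2 and Cfp, the genes at 6 days were C1qa and C1qb, which encode chains of C1q. C1qb measured 53.7, 62.4 and 70.2 CPM in controls and 83.5, 79.9 and 140 CPM at 20 mg/mL, all above the controls (log2 fold change 0.70, SE 0.33, p 0.0426, adjusted p 1). C1qa measured 28.6, 34.0 and 25.0 CPM in controls and 30.2, 39.5 and 78.6 CPM at 20 mg/mL (0.76, SE 0.35, p 0.0396, adjusted p 1), with overlap. Replicate 3 was the highest for both, and without it the fold changes were 0.40 and 0.26. The third chain, C1qc, was at 0.08 (SE 0.38), and at -0.14 without replicate 3. C1q is made largely by macrophages, whose summed genes were also higher in this comparison, and their part was not tested.

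Among the partners of the 2 convertases, C4a and C4b, near-identical copies whose reads the counting could split, had log2 fold changes of -0.32 and -0.36 at 6 days and 0.16 each at 12 days. Without replicate 1 of the controls the first was 0.06, and without replicate 2 of 20 mg/mL at 12 days they were -0.20 and -0.16. Cfd, the protease that cleaves factor B, measured 25.3, 33.0 and 21.4 CPM in controls at 12 days and 15.7, 144 and 30.9 CPM at 20 mg/mL. Its log2 fold change of 1.26 (p 0.0247, adjusted p 0.998) was -0.18 without replicate 2, the library with heart muscle genes, which also had the highest summed adipocyte genes (108 CPM, 11.9 at most elsewhere). Cfi, the protease that inactivates C3b, showed the same: 4.31, 4.04 and 0.423 CPM in controls, 1.41, 28.4 and 2.48 CPM at 20 mg/mL, and a log2 fold change of 1.89 (p 0.0445, adjusted p 0.998) that was -0.55 without that library. In the mean slopes over both days, 6 of 39 genes had unadjusted p under 0.05 (3.54% of all genes). These were C1qa, C1qb, Cfd, Cfi and C9 above 0 and Itgb2 below. Without the library with heart muscle genes the slopes of C1qa, C1qb, Cfd and Cfi moved from 0.30, 0.28, 0.46 and 0.86 to 0.15, 0.12, 0.09 and 0.23 log2 per 10 mg/mL. C9, a component of the pore, and Itgb2, a chain of complement receptors, were named after their values were seen. The slope of C9, 1.23, was 0.28 without replicate 3 of 20 mg/mL at 6 days. C9 was barely read, with a median of 0.82 CPM and a lowest value of 0. Its highest value, 16.9 CPM, came from the library with heart muscle genes.

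The other 3 genes with unadjusted p under 0.05 at 12 days were C5ar1, Fcnb and C6, of which Fcnb and C6 were chosen after their values were seen. Without replicate 2 of 20 mg/mL, the library with heart muscle genes, only 1 of the 39 complement genes had such a p. C5ar1, the receptor for the fragment C5a, averaged 18.6 ± 5.75 CPM at 20 mg/mL against 29.6 ± 7.04 CPM in controls (log2 fold change -0.67, SE 0.26, p 0.0169, adjusted p 0.998), with overlap. Fcnb, a ficolin of the lectin route, was at -0.99 (p 0.04, adjusted p 0.998), and its controls differed between days as well (1.04, p 0.0316, adjusted p 1). The summed neutrophil and monocyte genes were lower in the same comparison, though 2 of the 6 tested had fold changes above 0. The part of these cells was not tested. C6, a component of the pore, measured 5.55, 6.61 and 7.19 CPM in controls and 46.7, 12.3 and 76.9 CPM at 20 mg/mL (log2 fold change 2.81, SE 0.97, p 0.0106, adjusted p 0.998). In the controls at 6 days, C6 had measured 89.7, 17.4 and 6.43 CPM, so single unexposed libraries also reached such levels.

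The regulators outside the member set gave smaller values. Clusterin (Clu), which binds the forming pore, was at 0.01 and 0.29 log2 units at 20 mg/mL at 6 and 12 days. The second value was -0.23 without replicate 2, whose 676 CPM was the highest of all libraries. The membrane regulators Cr1l and Cd46 were at -0.10 and -0.23 at 6 days and 0.20 and 0.43 at 12 days. Cd46 at 12 days was -0.94 without replicate 2. Cr1l was 0.05 at 6 days without replicate 1 of the controls and -0.02 at 12 days without replicate 3 of 20 mg/mL. The receptors C3ar1 and C5ar2 were read at no more than 3.41 and 7.49 CPM, with SEs of 0.84 and 1.15 at 6 days, too few reads to describe a change. None of the 7 soluble regulators, 5 membrane regulators or 6 receptors tested was called.

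**Figure D3:**
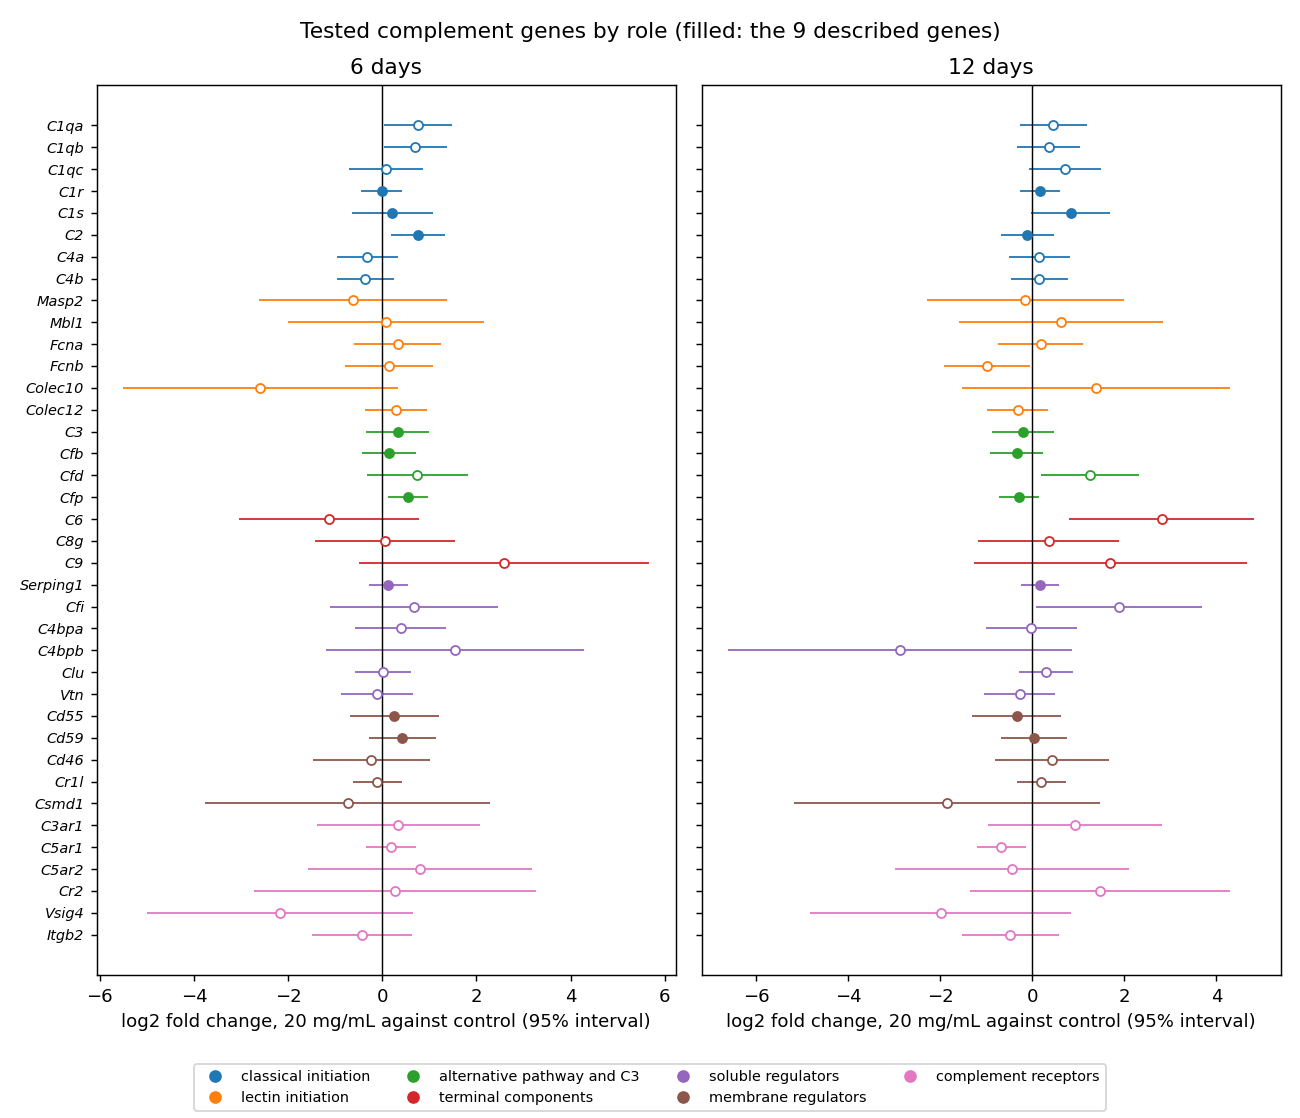
Log2 fold change at 20 mg/mL WCSC against control for 38 of the 39 tested complement genes, grouped by role, at 6 days (left) and 12 days (right), with 95% intervals from edgeR (3 libraries a group; filled points are the 9 genes of the set). C1qa, C1qb, C2 and Cfp at 6 days and Cfd, C6 and Cfi at 12 days lie above 0 with their whole intervals. C5ar1 (-0.67) and Fcnb (-0.99) at 12 days lie below. Cfd and Cfi turn to -0.18 and -0.55 without 1 library, replicate 2 of 20 mg/mL. Without it only 1 of the 39 genes had unadjusted p under 0.05 at 12 days. None passed after adjustment.

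Complement genes are known targets of interferon and of acute phase signals, so these lists were read beside them. All 12 interferon response genes had fold changes above 0 at 20 mg/mL and 12 days (median 0.47 against 0.01 for all genes, of which 51.2% were above 0), and 6 of 12 did at 6 days (median 0.01). None was called. The members had a median of -0.11 and 0.26 in the same comparisons. Of the 8 tested genes of the acute phase and NF-kappaB list, Cebpd was called in the mean slope and fell, and the other 7 were not called.

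The members were then compared across the 24 libraries. Of 36 pairs, 2 had an adjusted permutation p under 0.05 for Pearson's r of log2 CPM. C2 and Cfb, whose genes are neighbours, correlated at r = 0.70 (p 0.00015, adjusted 0.0054; Spearman's rho 0.61, p 0.00202). The value was 0.70 for deviations from the group means and 0.67 without the 2 libraries farthest from the median of C2. It was 0.76 within 6 days and 0.48 within 12 days. C2 and Cfp correlated at r = 0.59 (p 0.00209, adjusted 0.0376; rho 0.57, p 0.00398), 0.48 without those 2 libraries, 0.76 within 6 days and 0.20 within 12 days. By rho, C2 and Cd59 also passed (rho 0.61, adjusted 0.0407; r 0.43, adjusted 0.224). C3 correlated with no other member past adjustment (r from -0.12 to 0.37). These values depended on the libraries used. Without the 8 libraries in which fewest genes were detected, C3 was at r 0.69 with C2 and 0.62 with Cfb. It was at 0.53 with Cd59, 0.51 with Cfp and -0.28 to 0.25 with the other members, with no p computed.

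Correlations with the summed marker lists were computed after the data were seen, over 144 pairs of a member and a list, of which 10 passed adjustment by r and 4 of these 10 by rho as well. The 4 were Cfb with type II and with type I genes, C2 with macrophage genes and C1s with mesothelial genes. By rho alone, C2 with type II genes also passed (rho 0.62, adjusted permutation p 0.0499, against r 0.59, adjusted 0.0562). Its r was 0.73 within 6 days and 0.56 within 12 days. C1s with liver genes did so too (rho -0.61, adjusted permutation p 0.0499, against r -0.33, adjusted 0.351). A sum is weighted to the most read genes of its list. Those were S100a8 and S100a9 for neutrophils and monocytes, Ager for type I cells (949094 reads, 174619 at most for another gene) and Msln for mesothelium (6433, 2164 at most for another). Relations to the single genes of a list were not tested. The adjusted p of rho was 0.0592 for Cfp with macrophage genes, 0.0526 for both relations of Cd59, 0.107 for C1s with fibroblast and with heart muscle genes and 0.419 for C1s with endothelial genes. Cfb followed the type II genes (r 0.77, p 1e-05, the smallest these permutations can give, adjusted 0.00144; rho 0.79, p 2e-05). It was 0.79 within 6 days and 0.87 within 12 days, and 0.74 without the 2 farthest libraries. Cfb also followed the type I genes (r 0.64, permutation p 0.00073, adjusted 0.0239; rho 0.62, p 0.00149), at 0.68 without the 2 farthest libraries. C2 followed the macrophage genes (r 0.69, permutation p 0.0002, adjusted 0.0096; rho 0.67, p 0.00042), at 0.87 within 6 days and -0.20 within 12 days. Cfp did so as well (r 0.57, permutation p 0.0034, adjusted 0.049; rho 0.57, p 0.00411), at 0.77 and -0.12. Without the 2 farthest libraries both were at 0.60. The difference between days was not tested.

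C1s followed the fibroblast genes at r = 0.74 (permutation p 0.0002, adjusted 0.0096; rho 0.52, p 0.0104), and at 0.38 without the 2 farthest libraries. For heart muscle genes r was 0.71 (permutation p 0.00101, adjusted 0.0242; rho 0.52, p 0.00985) and 0.44 without the 2 farthest libraries. For endothelial genes it was -0.66 (permutation p 0.00149, adjusted 0.0307; rho -0.35, p 0.0966) and -0.15. These relations rested on the farthest libraries. For mesothelial genes r was 0.59 (permutation p 0.00327, adjusted 0.049; rho 0.68, p 0.00034) and 0.57 without the 2 farthest libraries. Cd59 followed T and NK cell genes (r 0.63, permutation p 0.00083, adjusted 0.0239; rho 0.58, p 0.00329) and neutrophil and monocyte genes (r 0.60, permutation p 0.00231, adjusted 0.0416; rho 0.59, p 0.00293), at 0.60 and 0.55 without the 2 farthest libraries. C3, C1r, Serping1 and Cd55 had no relation to a marker list past adjustment. C3 with macrophage genes was at r 0.29, and at -0.06 without the 2 farthest libraries. Without the 8 libraries in which fewest genes were detected it was at 0.76. C3 with T and NK cell genes was at 0.39, 0.33 and 0.70 in the same order.

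**Figure D4:**
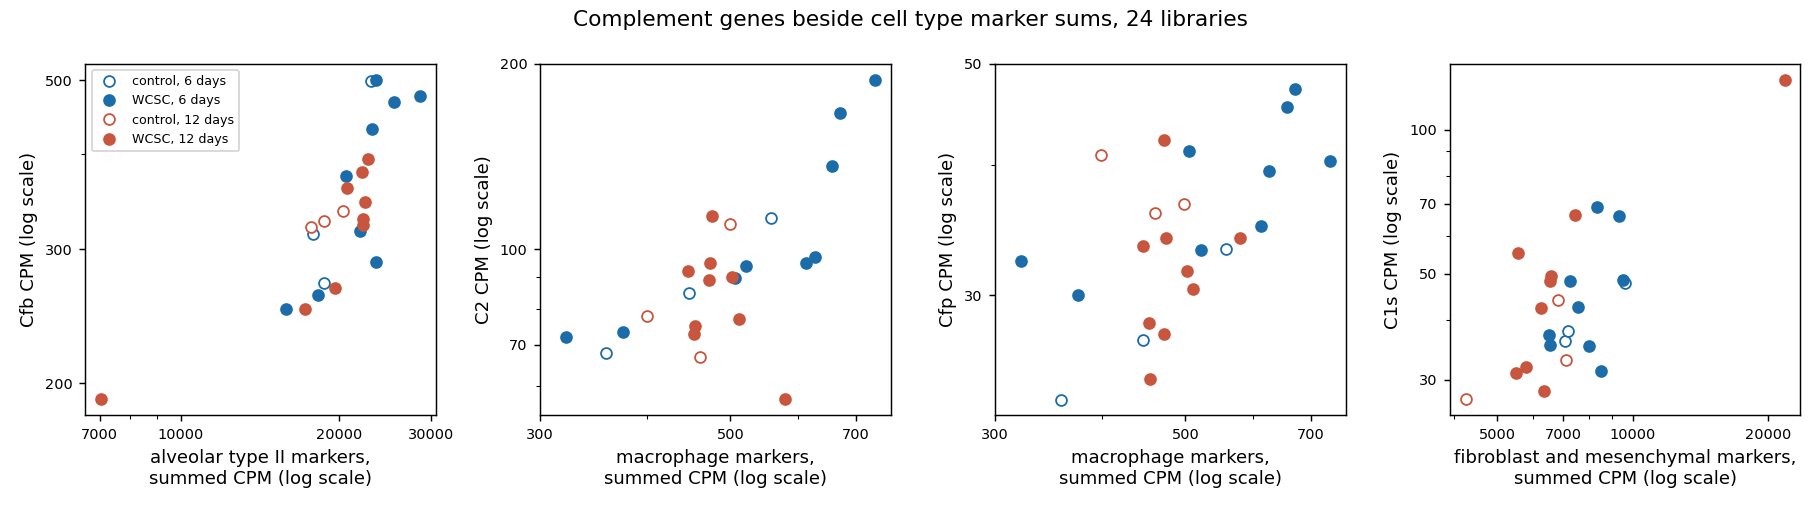
CPM of Cfb, C2, Cfp and C1s against the summed CPM of a marker list in the 24 libraries (log scales; blue 6 days, red 12 days; open points are controls). Cfb is higher where the alveolar type II sum is higher at both days (r 0.79 and 0.87), and the C1s value of 127 CPM lies apart at a fibroblast sum of 21790.

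Among 7679 genes with at least 10 CPM on average, the 3 whose log2 CPM followed each member most closely over the 24 libraries are given as a description. Those of C2 were Npc2 (r 0.82), Ctsh (0.81) and Fcer1g (0.81), those of Cfb were Acly (0.85), Tnfsf13 (0.83) and Pdpn (0.83), and those of Cfp were Acp5 (0.72), Il1b (0.71) and Arpc1b (0.71). For C3 they included Metap1 (0.68) and Mpeg1 (0.68), for C1s Bzw2 (0.77), Lum (0.76) and Col1a1 (0.74), and for C1r Smad3 (0.72), Plagl1 (0.62) and Gjc1 (0.61). For Serping1 they were Gckr (0.75), Trib3 (0.75) and Fam120a (0.72), for Cd59 Hspa4 (0.86), Eif2s2 (0.84) and Smc4 (0.84), and for Cd55, itself below 10 CPM, Pigz (0.73), Srsf10 (0.70) and Hnrnpr (0.69). Depth and tissue content are shared by all genes of a library and enter these values.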

How the data were processed

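RNA of rat lung was extracted with Trizol and made into libraries with a Lexogen Quant-Seq kit, per the labels' protocols. Per the submitters' processing notes, the tools included Bowtie2 and bedtools, with build rn6. Their versions, the annotation and the strand setting were not given in the sources used here. Raw read counts per gene symbol were deposited by the authors, 1 table per library with 17048 lines. The 149 symbols on repeated lines (316 lines, 2.48% of counts) were left out. The remaining 16732 symbols were filtered with filterByExpr, scaled by TMM and fitted with edgeR 4.0.16 in R 4.3.3 as 8 group means over 24 libraries (16 residual degrees of freedom, common biological coefficient of variation 0.335). Tests were two-sided, adjusted by Benjamini-Hochberg, with 95% intervals from the same fit. Log2 CPM used a prior count of 2. Slopes are linear in dose, per 10 mg/mL. Correlations used 100000 permutations. The fit was tested on simulated counts for 20 mg/mL against control at 6 days. It called 33 of 200 genes changed 2-fold and 150 of 200 changed 4-fold, so most simulated 2-fold changes were missed.

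The members, the lists of complement, marker and response genes, and the tests were chosen with earlier results of these data known. The genes named were the 9 members, 14 other complement genes whatever their p, any other listed complement gene with an adjusted p under 0.05, and the 3 genes most like each member, of which some results are not reported here. Listed genes with an unadjusted p under 0.05 were named after their values were seen. Alternatives were RLE and upper-quartile scaling, no filter, repeated lines summed, a replicate block within day, the number of detected genes at equal depth as a covariate, only the groups compared, limma 3.58.1 voom with sample weights, DESeq2 1.42.0, and each library left out. Dropping the 8 libraries in which fewest genes were detected, and dropping both libraries of unusual tissue content, were added after seeing the data.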

Additional observations from a re-analysis of the deposited data

Results flagged for a closer look

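In Cfp every 20 mg/mL library lay above every control at 6 days and below every control at 12 days. Cfp was flagged for this pattern, and the difference between days did not pass adjustment. The tested difference was -0.826 log2 units (SE 0.29, edgeR p 0.00993, adjusted p 1 over 11351 genes). The controls, which enter this difference, were themselves higher at 12 days than at 6 days without overlap (0.43, SE 0.21, p 0.0492, adjusted p 1). The same pattern, higher at 6 days and lower at 12 days, was found in 24 genes (0.211%), and the opposite directions in either order in 46 (0.405%). Taken singly, 4.06% of all genes were higher without overlap at 6 days and 4.11% lower at 12 days. Whether the 24 genes exceed what these shares would give was not tested.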

How the results depend on the processing

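No setting called a member (0 of 1908 values). Against the main edgeR fit, the counts of genes called moved as follows. At 20 mg/mL and 6 days (0 called) RLE scaling, no filter, the replicate block within day and the covariate gave 1 each, voom 2, and DESeq2 and dropping the 8 libraries in which fewest genes were detected 3 each. At 12 days (0 called) the fit of only the groups compared gave 1, voom 2 and DESeq2 4. At 10 mg/mL voom gave 5 at 6 days, and at 12 days only the groups compared gave 2 and DESeq2 1. At 5 mg/mL DESeq2 gave 2 at 6 days and 1 at 12 days. For the slope at 6 days (1 called) only the groups compared and the removal of both libraries with unusual tissue content gave 0, voom and the removal of the 8 libraries 2, and DESeq2 8. For the slope at 12 days (0 called) the covariate, only the groups compared and the removal of the 8 libraries gave 1 each, voom 3 and DESeq2 11. For the mean slope (3 called) no filter and voom gave 6, DESeq2 10 and the removal of both tissue libraries 0. The causes were not tested.

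Leaving out each library in turn gave 0 to 2 called genes at 5 mg/mL and 6 days, 0 to 2 for the slope at 6 days, 1 to 7 for the mean slope, 0 in every other contrast, and 1 to 3 correlated member pairs.

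Directions turned for some members, none called. Without both tissue libraries the log2 fold change at 20 mg/mL and 6 days was -0.22 for C3, 0.06 for C1r and -0.16 for C1s; at 12 days it was 0.08 for C2, -0.03 for C1r and -0.23 for C1s; the mean slopes were -0.14 for C3, -0.12 for C1s and 0.06 for Cd55. C1r at 6 days was 0.01 with upper-quartile scaling, the replicate block and only the groups compared, and 0.09 with voom. Cd59 at 12 days was -0.03 with the covariate and with voom, and -0.45 without the 8 libraries. The mean slope of C3 was -0.07 with voom, and that of Cd55 0.00 without the 8 libraries.

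With each library left out in turn, the ranges at 20 mg/mL and 6 days were -0.22 to 0.68 for C3, -0.03 to 0.45 for Cfb, -0.15 to 0.19 for C1r, -0.16 to 0.38 for C1s and -0.24 to 0.59 for Cd55. At 12 days they were -0.25 to 0.12 for C2, -0.03 to 0.32 for C1r, -0.23 to 1.18 for C1s and -0.24 to 0.31 for Cd59. Mean slopes ran from -0.11 to 0.12 for C3, -0.02 to 0.34 for C1s, -0.22 to 0.00 for Cd55 and -0.11 to 0.00 for Cfb. C2 and Cfp kept their sign at 6 days under every setting run (0.57 to 1.00 and 0.42 to 0.68).

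The labels gave no pairing of same-numbered libraries. Their deviations from the group means correlated at -0.18 to 0.59 at 6 days (10 of 18 pairs over 0.1) and -0.15 to 0.21 at 12 days (4 of 18). At 6 days the genes detected at equal depth went with the replicate number in part. They were 11427 to 11918 in replicate 1, 11326 to 12306 in replicate 2 and 12072 to 12377 in replicate 3. What same-numbered libraries at 6 days shared was not tested, and the main fit and the correlations took no account of replicate number. With the replicate block the fold changes of C2 and Cfp at 6 days were 0.80 and 0.56. The lowest read number of a member was 22 (Cd55), which limits its precision.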
